A study of Homo sapiens with 8 samples.

Results

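The genes described here are the 7 insulin-like growth factor binding proteins IGFBP1 to IGFBP7, the receptor IGF1R and its substrates IRS1 and IRS2. They were taken by gene name, as 10 of 45341 gene IDs measured in both rounds of the study. Of the 10, 8 reached at least 1 FPKM (fragments counted relative to gene length and library size) in at least 2 of the 8 libraries and entered the tests, in which 12696 genes took part. IGFBP4 was selected on its own measured levels, for being lower with both compounds than with vehicle. Its compound values are therefore a description with no test.

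All libraries were polyadenylated RNA of MDA-MB-231, a mesenchymal, triple-negative human breast cancer line. The compounds 1-SO and 1-S are triphenylphosphonium salts that carry a dibenzothiophene S-oxide in 1-SO and the dibenzothiophene without that oxygen in 1-S. Cells received 10 µM compound for 24 h, or 1% DMSO as vehicle, and were then exposed to UV-A (325 to 375 nm, 8 bulbs, 30 min) or kept dark in foil. The 6 groups were 1-SO UV-A, 1-SO dark, 1-S UV-A and 1-S dark with 1 library each, then vehicle UV-A and vehicle dark with 2 libraries each. Round 1 held 1-SO and a vehicle pair at passage 8. Round 2 held 1-S and a vehicle pair at passage 32 to 34. Compound, round and passage changed together and cannot be told apart. UV-A and dark wells stood on separate plates, so plate and light cannot be told apart either.

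Insulin-like growth factors act on cells through IGF1R, a receptor tyrosine kinase that phosphorylates the adaptor proteins IRS1 and IRS2, which in turn recruit phosphoinositide 3-kinase and the kinase AKT. The secreted binding proteins hold these ligands outside the cell and set how much of them reaches the receptor. IGFBP1 to IGFBP6 bind the ligands with high affinity, whereas IGFBP7 binds them weakly. In breast cancer cells IRS1 and IRS2 pass on the same receptor's signal but are known for different roles, IRS1 in growth and IRS2 in motility.

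The promoters of the binding protein and the pair of substrates on which the results turn are shown first, each from 250 bases before to 50 bases after the gene's start, from RefSeq on GRCh38.p14. Capitals mark matches, on either strand, to any of 6 short motifs. The TATA box was searched as TATAAA. The CCAAT box was searched by the letters of its name, and the GC box as GGGCGG. One form of the insulin response element was searched as TATTTTG, and its other form was TGTTTTG. The cAMP response element was searched as TGACGTCA. RefSeq places the starts of these 3 genes upstream of those in the deposited files, and the IRS1 window lies wholly upstream of the deposited gene span. The table matched 8 of the 10 genes, and IGFBP1 and IGFBP7 were without an entry.
IGFBP4, chr17:40443200-40443499, plus strand: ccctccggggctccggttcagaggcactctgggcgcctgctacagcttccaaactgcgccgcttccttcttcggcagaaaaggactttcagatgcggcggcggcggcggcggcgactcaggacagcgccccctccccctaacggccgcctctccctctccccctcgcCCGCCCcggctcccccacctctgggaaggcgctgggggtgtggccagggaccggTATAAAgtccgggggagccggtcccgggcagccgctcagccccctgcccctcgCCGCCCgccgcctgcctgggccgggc
IRS1, chr2:226799771-226800070, minus strand: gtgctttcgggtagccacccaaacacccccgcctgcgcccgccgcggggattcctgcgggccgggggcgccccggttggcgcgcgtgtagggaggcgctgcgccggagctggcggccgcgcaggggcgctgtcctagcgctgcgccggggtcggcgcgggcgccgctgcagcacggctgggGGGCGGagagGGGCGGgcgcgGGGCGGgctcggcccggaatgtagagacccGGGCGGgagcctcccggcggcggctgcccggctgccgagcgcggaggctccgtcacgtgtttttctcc
IRS2, chr13:109786534-109786833, minus strand: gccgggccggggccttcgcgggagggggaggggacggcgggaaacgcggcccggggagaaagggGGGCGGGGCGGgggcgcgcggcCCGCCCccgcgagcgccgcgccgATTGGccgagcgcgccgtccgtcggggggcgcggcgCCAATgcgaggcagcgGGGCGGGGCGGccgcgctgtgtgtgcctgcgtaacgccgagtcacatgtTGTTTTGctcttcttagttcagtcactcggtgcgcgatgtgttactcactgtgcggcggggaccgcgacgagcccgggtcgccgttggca
The IGFBP4 promoter held 1 TATA box, starting 29 bases before the gene's start, and 2 GC boxes. The TATA box was present in 11.5% of 35116 promoters of this length, and the GC box in 45% of them. The IRS1 promoter held 4 GC boxes and none of the other motifs. The IRS2 promoter held 5 GC boxes, some sharing bases, with 2 CCAAT boxes (34.6% of promoters) and 1 insulin response element of the TGTTTTG form (4.92% of promoters). The TATTTTG form (4.42% of promoters) and the cAMP response element (1.85%) were in none of the 3 windows. The G and C content was 74% for IGFBP4, 79.33% for IRS1 and 75.67% for IRS2, against a median of 58.67% over all promoters. A match is a description of the letters in these windows.

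The libraries held between 15816049 and 22564754 counted reads, and 3 reads, the limit that a count of 0 allows, came to 0.133 to 0.19 CPM (counts scaled to library size). VIM, CD44, EGFR and AXL, which mark this line, stood at 28.3 to 329 FPKM in all 8 libraries. Their summed level was 715 FPKM in 1-SO UV-A cells against 846 FPKM in vehicle UV-A cells, and 835 FPKM in 1-SO dark cells against 850 FPKM in vehicle dark cells. With 1-S it was 442 FPKM against 674 FPKM in vehicle cells under UV-A, and 459 FPKM against 630 FPKM in the dark. AXL and CD44 were the 2 of 4 that were lower in both 1-S libraries than in vehicle cells of round 2, AXL at 123 and 149 FPKM against 323 and 291 FPKM, and CD44 at 28.3 and 32.3 FPKM against 62.3 and 59.96 FPKM (UV-A first, then dark). In round 1 AXL had 210 FPKM and CD44 132 FPKM in 1-SO UV-A cells, against 282 and 197 FPKM in vehicle UV-A cells. ESR1, PGR and CDH1 stayed under 1 FPKM in all libraries, as in a triple-negative mesenchymal line, whereas ERBB2 (9.78 to 29.2 FPKM) and EPCAM (2.25 to 5.58 FPKM) were present. Of 5 markers of blood, endothelial and fibroblast cells, 4 (PTPRC, CD3E, VWF and COL3A1) stayed under 1 FPKM in all libraries, with CD3E at 0 in 6 of the 8. COL1A1 had 6.39 FPKM in 1-S UV-A cells against 1.49 FPKM in vehicle UV-A cells, and 7.09 FPKM in 1-S dark cells against 1.45 FPKM in vehicle dark cells. In round 1 it had 2.67 FPKM in 1-SO UV-A cells against 2.36 FPKM in vehicle UV-A cells, and 2.08 FPKM in 1-SO dark cells against 1.65 FPKM in vehicle dark cells. The summed level of these 5 was 6.57 and 7.14 FPKM in 1-S cells against 1.63 and 1.61 FPKM in vehicle cells of round 2, and 1.73 to 2.69 FPKM in round 1. AXL, CD44 and COL1A1 thus differed along with the 1-S differences given below, and AXL and CD44 with those of 1-SO under UV-A. Their part in those differences was not tested. Counts were tested with edgeR's quasi-likelihood test in 1 model of all 8 libraries with round as a term, and p-values were adjusted over all tested genes by Benjamini-Hochberg with a threshold of 0.05. Each compound group had 1 library, which is assumed to vary as the vehicle libraries do. No compound difference therefore has a replicate check of its own. The model takes the vehicle spread from how far the vehicle light response differed between the rounds. Replicate spread and a change of that response with round or passage cannot be told apart in it. FPKM values were compared within a round only, since gene lengths differed between the rounds' annotations.

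IGFBP4 (ENSG00000141753, chromosome 17, 40443461 to 40457731 on GRCh38, plus strand), which inhibits ligand action until the protease PAPPA cleaves it, was among the most abundant transcripts of vehicle cells. In round 1 it had 257 FPKM in 1-SO UV-A cells and 878 FPKM in vehicle UV-A cells, with 1277 FPKM in 1-SO dark cells and 1319 FPKM in vehicle dark cells. In round 2 it had 242 FPKM in 1-S UV-A cells and 1375 FPKM in vehicle UV-A cells, with 253 FPKM in 1-S dark cells and 1678 FPKM in vehicle dark cells. In round 1 the library with 1-SO and UV-A stood apart below the other 3, and in round 2 both 1-S libraries stood below both vehicle libraries. With 1-SO, IGFBP4 was at 29.3% of the vehicle level under UV-A and at 96.8% in the dark. With 1-S it was at 17.6% under UV-A and at 15.1% in the dark. In cells that held 1-SO, the irradiated level was 20.2% of the dark level. In cells that held 1-S it was 95.8%. The order of levels was 1-SO UV-A, vehicle UV-A, 1-SO dark and vehicle dark in round 1, and 1-S UV-A, 1-S dark, vehicle UV-A and vehicle dark in round 2, from low to high. The dark pair of round 1 and the 1-S pair of round 2 were the neighbours that lay closest.

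IGFBP4 was also ranked by FPKM among all 45341 gene IDs measured in both rounds. In round 1 it was the 130th in 1-SO UV-A cells against 20th in vehicle UV-A cells, and the 17th in 1-SO dark cells against 16th in vehicle dark cells. In round 2 it was the 78th in 1-S UV-A and the 68th in 1-S dark cells, against 13th in vehicle UV-A and 9th in vehicle dark cells. It took 0.0566% of all counted reads with 1-SO and UV-A, against 0.193% with vehicle and UV-A, and 0.0557% with 1-S in the dark, against 0.369% with vehicle in the dark. The fitted log2 fold change over vehicle was -1.95 for 1-SO under UV-A, 0.03 for 1-SO in the dark, -2.48 for 1-S under UV-A and -2.87 for 1-S in the dark. Counted from the most negative of the 12696 tested genes, these changes ranked 70th for 1-SO UV-A, 86th for 1-S UV-A and 37th for 1-S dark. IGFBP4 was picked for this fall, so low ranks follow from the choice and are only a description. In bulk RNA, fewer cells that express a gene and less RNA per cell cannot be told apart, here and for every gene below.

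**Figure D1:**
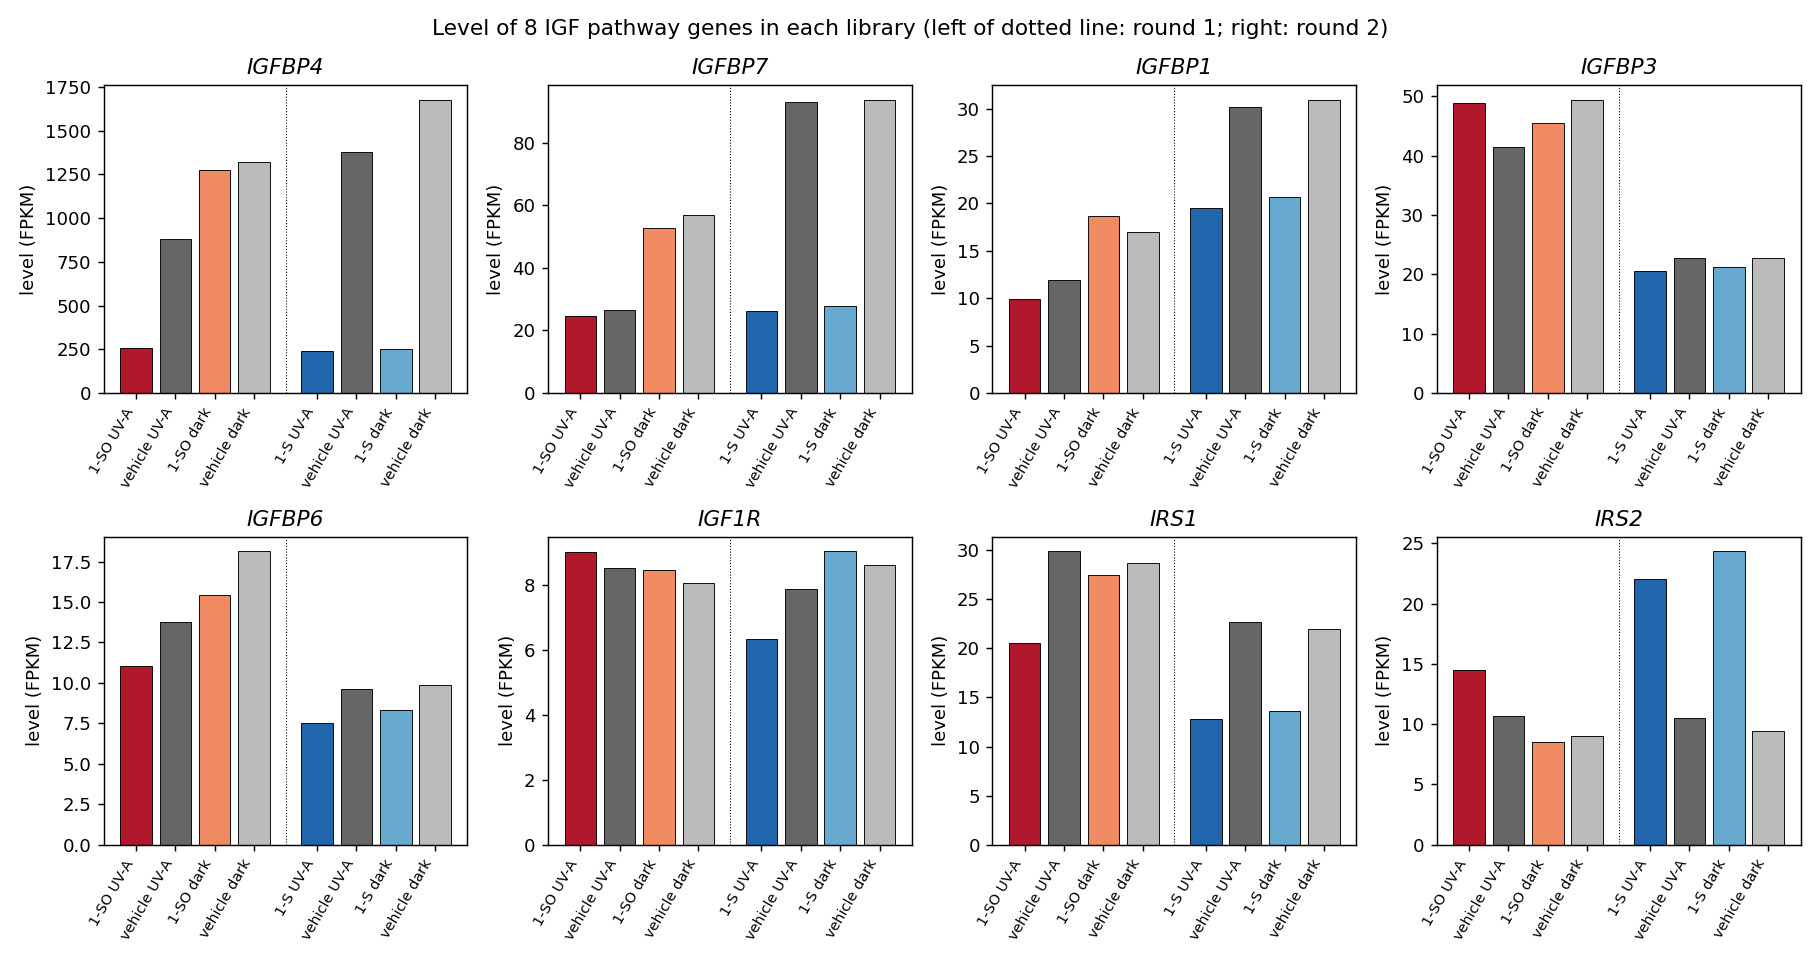
Level in FPKM (vertical axis, linear from 0, a scale of its own in each panel) of the 8 tested genes in each of the 8 libraries, 1 bar per library, with round 1 left and round 2 right of the dotted line. In round 1 IGFBP4 stands at 257 FPKM in 1-SO UV-A cells and at 878 to 1319 FPKM in the other 3 libraries, and in round 2 at 242 and 253 FPKM in 1-S cells and at 1375 and 1678 FPKM in vehicle cells.

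Over the 7 binding proteins together, IGFBP4 made up most of the signal in every library. The summed level was 352 FPKM in 1-SO UV-A cells against 972 FPKM in vehicle UV-A cells, and 1409 FPKM in 1-SO dark cells against 1460 FPKM in vehicle dark cells. In round 2 the sum was 316 FPKM in 1-S UV-A cells against 1531 FPKM in vehicle UV-A cells, and 331 FPKM in 1-S dark cells against 1835 FPKM in vehicle dark cells. IGFBP4 held 73.1% of the sum in 1-SO UV-A cells, against 90.3% to 90.6% in the other libraries of round 1. It held 76.6% in 1-S UV-A and 76.5% in 1-S dark cells, against 89.8% in vehicle UV-A and 91.4% in vehicle dark cells. Without IGFBP4, the sum was 94.5 FPKM with 1-SO UV-A and 93.6 FPKM with vehicle UV-A, nearly equal. With 1-S it was 74.0 FPKM against 156 FPKM in vehicle cells under UV-A, and 77.9 FPKM against 157 FPKM in the dark. Most of this 1-S difference lay in IGFBP7, at 26.3 against 93.1 FPKM under UV-A and 27.7 against 93.8 FPKM in the dark.

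**Figure D2:**
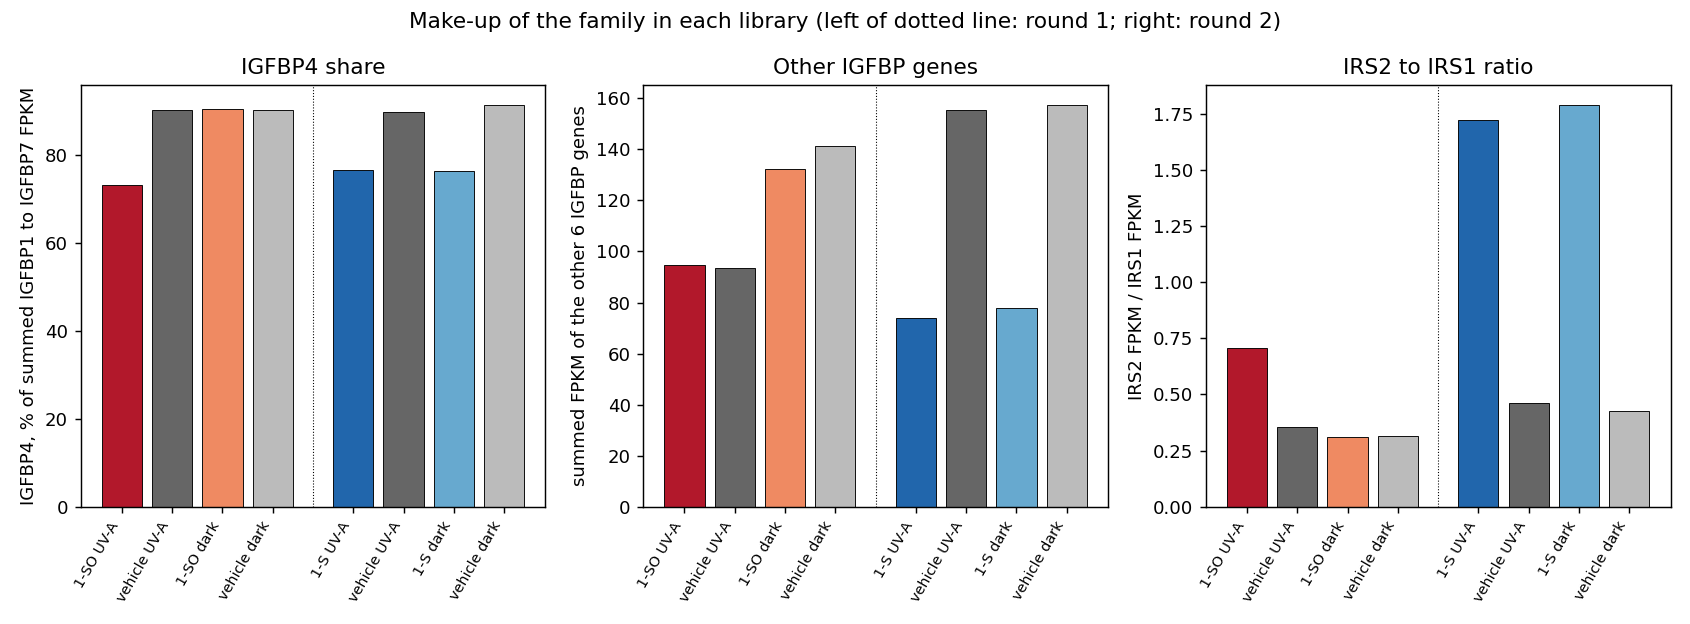
Left, IGFBP4 as a percentage of the summed FPKM of IGFBP1 to IGFBP7. Middle, summed FPKM of the 6 other binding proteins. Right, ratio of IRS2 to IRS1 FPKM. Each bar is 1 library, and round 1 stands left of the dotted line; gene lengths differed between rounds, so bars are to be compared on the same side of it. The ratio is highest with 1-SO UV-A in round 1 (0.705) and with 1-S UV-A (1.72) and 1-S dark (1.79) in round 2.

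Of the 7 tested genes besides IGFBP4, IRS1 was the 1 called for 1-SO UV-A over vehicle UV-A, where 11.5% of all tested genes were called. For 1-SO dark over vehicle dark, 0 of 7 were called by edgeR and 0% of all genes. At an unadjusted p under 0.05 that comparison held 26 genes, none of the 7 among them, and DESeq2 called 0. For 1-S UV-A over vehicle UV-A, 3 of 7 were called (IGFBP7, IRS1 and IRS2) against 27.5% of all genes. For 1-S dark over vehicle dark, 4 of 7 were called (the same 3 genes and IGFBP1) against 30.9% of all genes. For 1-SO UV-A over 1-SO dark, 3 of 7 were called (IGFBP7, IGFBP1 and IRS2) against 14.8%, with 5.57% of all genes called higher and 9.21% lower. For 1-S UV-A over 1-S dark, edgeR called 0 of 7 and 0% of all genes, with 308 genes at an unadjusted p under 0.05, IGF1R among them, and DESeq2 called 0. The median log2 fold change of the 7 genes was -0.51 for 1-SO UV-A, -0.41 for 1-S UV-A and -0.39 for 1-S dark over vehicle, beside medians of 0.01, 0.00 and 0.00 over all tested genes. Over all 9 comparisons, those of compound with compound and of light in vehicle cells included, edgeR made 16 calls of these genes. DESeq2 kept 6 of them: IRS1 and IRS2 for 1-S in both light conditions, IGFBP7 for 1-S in the dark, and IRS2 for the difference between compounds in the dark. A model without the round term made 0 calls of these genes. Both settings also made fewer calls among all tested genes, in each comparison where edgeR with the round term made any. The losses are thus not particular to these genes. In the authors' deposited tables, which set single libraries against each other, IGFBP7 passed with 1-S (adjusted p = 0.00112 under UV-A and 0.00185 in the dark). IRS1 did not pass in the authors' deposited tables (adjusted p = 1 for 1-SO UV-A, 0.458 for 1-S UV-A and 0.721 for 1-S dark), nor did IRS2 (0.463 for 1-S UV-A and 0.128 for 1-S dark) or IGFBP1 (0.986 for 1-S dark).

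**Figure D3:**
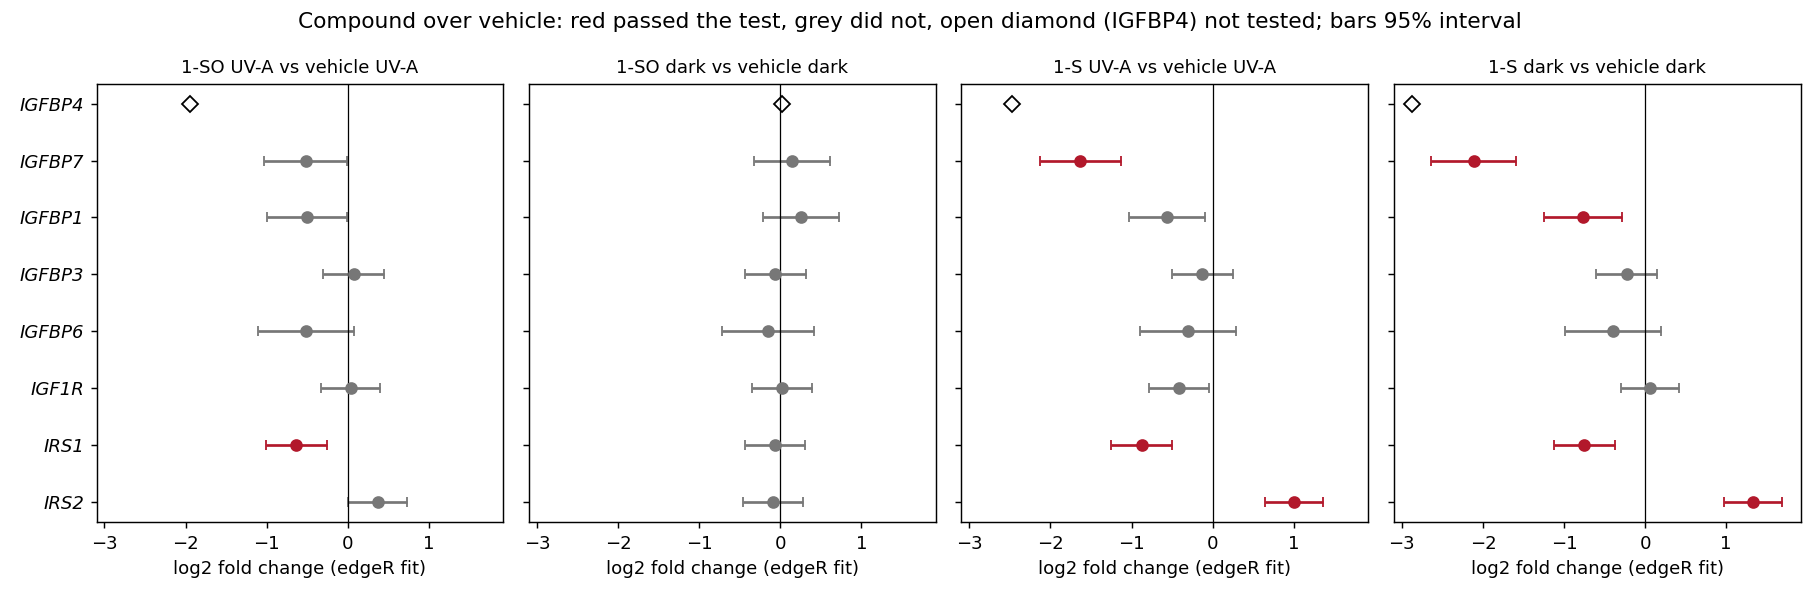
Fitted log2 fold change of compound over vehicle (horizontal axis) for the 8 tested genes in 4 comparisons. Points are edgeR estimates with 95% intervals, red where the adjusted p was under 0.05, and the open diamond is IGFBP4, shown without a test. IGFBP7 and IRS1 lie left and IRS2 right of 0 with 1-S in both light conditions, and no gene is red for 1-SO in the dark.

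IGFBP7 (ENSG00000163453, chromosome 4, 57030773 to 57110385, minus strand), a matrix-associated protein that binds insulin as well as the growth factors, fell with 1-S. Round 2 values were 26.3 FPKM in 1-S UV-A cells against 93.1 FPKM in vehicle UV-A cells, and 27.7 FPKM in 1-S dark cells against 93.8 FPKM in vehicle dark cells. In round 1 it had 24.7 FPKM in 1-SO UV-A cells against 26.5 FPKM in vehicle UV-A cells, and 52.8 FPKM in 1-SO dark cells against 56.8 FPKM in vehicle dark cells. Round 2 thus divided by compound and round 1 by light. The log2 fold change of 1-S over vehicle was -1.63 ± 0.24 (SE) under UV-A (edgeR adjusted p = 1.21e-05) and -2.11 ± 0.25 in the dark (edgeR adjusted p = 5.04e-07). These estimates use 1 vehicle light term for both rounds. From round 2 alone they were -1.89 and -1.80. Left without the round 2 vehicle library of the same light, they were -0.72 under UV-A and -2.98 in the dark.

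1-SO UV-A over vehicle UV-A gave -0.52 ± 0.25 for IGFBP7 (edgeR adjusted p = 0.188), and -0.18 from round 1 alone. Without the vehicle UV-A library of round 1 this value was -1.35. The value of 1-SO dark over vehicle dark was 0.14 with all libraries, 1.05 without the vehicle dark library of round 1, and -0.12 with each of the other vehicle libraries left out in turn. 1-SO UV-A over 1-SO dark gave -1.22 ± 0.26 (edgeR adjusted p = 0.00156). The irradiated level was 46.8% of the dark level in 1-SO cells and 46.7% in vehicle cells of the same round, so this difference between light and dark was as large without the compound. IGFBP7 shares 270 of its 1930 exon bases (GENCODE 29) with POLR2B on the opposite strand, which had 4124 to 5484 counts in round 2. The labels name a strand-specific library without saying how strands were counted, and the part of POLR2B reads in these values was not tested.

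IGFBP1 (chromosome 7, 45888357 to 45893668, plus strand), a short-lived binding protein whose gene insulin represses in liver, had 9.89 FPKM in 1-SO UV-A cells against 11.9 FPKM in vehicle UV-A cells. Its level was 18.7 FPKM in 1-SO dark cells against 17.0 FPKM in vehicle dark cells of round 1. Round 2 values were 19.5 FPKM in 1-S UV-A cells against 30.2 FPKM in vehicle UV-A cells, and 20.6 FPKM in 1-S dark cells against 31.0 FPKM in vehicle dark cells. As with IGFBP7, both irradiated libraries were the lower ones in round 1 and both 1-S libraries in round 2. IGFBP1 fell by 0.77 ± 0.23 on the log2 scale with 1-S in the dark (edgeR adjusted p = 0.0134), and its value under UV-A was -0.57 ± 0.23 (edgeR adjusted p = 0.0636). These estimates too use 1 vehicle light term for both rounds. From round 2 alone IGFBP1 gave -0.62 in the dark and -0.69 under UV-A, so the fall was not larger in the dark there. It fell by 1.05 ± 0.25 in 1-SO UV-A over 1-SO dark cells (edgeR adjusted p = 0.00492). In vehicle cells of that round the irradiated level was 69.9% of the dark one, against 52.8% in 1-SO cells.

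IGFBP3 lies 18.6 kb from IGFBP1 on the opposite strand (chromosome 7, 45912245 to 45921874) and encodes the main carrier of these ligands in blood. It had 48.9 FPKM in 1-SO UV-A, 41.5 FPKM in vehicle UV-A, 45.5 FPKM in 1-SO dark and 49.4 FPKM in vehicle dark cells. The round 2 levels were 20.6 FPKM in 1-S UV-A, 22.7 FPKM in vehicle UV-A, 21.2 FPKM in 1-S dark and 22.7 FPKM in vehicle dark cells. Its compound values were within 0.23 of 0 on the log2 scale and none passed the test. With 1-S in the dark, the 95% interval of its log2 fold change ran from -0.61 to 0.15, beside an estimate of -2.11 for IGFBP7. That interval rests on 1 compound library and mostly on spread pooled over all tested genes, so it measures little of IGFBP3's own spread.

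IGFBP6 (chromosome 12, 53097436 to 53102345), which prefers IGF2 as its ligand, had 11.0 FPKM in 1-SO UV-A cells against 13.8 FPKM in vehicle UV-A cells, and 15.4 FPKM in 1-SO dark cells against 18.1 FPKM in vehicle dark cells. In round 2 it had 7.54 FPKM in 1-S UV-A cells against 9.60 FPKM in vehicle UV-A cells, and 8.34 FPKM in 1-S dark cells against 9.84 FPKM in vehicle dark cells. The compound library was the lower one in all 4 pairs, at 78.6% to 85.1% of the vehicle level, and none of the 4 values passed edgeR's test (adjusted p from 0.267 to 1). IGFBP2 and IGFBP5, which lie 7.7 kb apart on chromosome 2, were at the detection limit. IGFBP2 had 0 to 3 counts and IGFBP5 had 0 to 3 counts per library, so no fold change is given for either.

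IGF1R (chromosome 15, 98648971 to 98964530, plus strand), the receptor itself, had 9.01 FPKM in 1-SO UV-A cells against 8.51 FPKM in vehicle UV-A cells, and 8.47 FPKM in 1-SO dark cells against 8.05 FPKM in vehicle dark cells. The second round gave 6.32 FPKM in 1-S UV-A cells against 7.87 FPKM in vehicle UV-A cells, and 9.03 FPKM in 1-S dark cells against 8.62 FPKM in vehicle dark cells. The library with 1-S and UV-A was the lowest of its round, and those of round 1 lay close together. The log2 fold change was -0.52 ± 0.19 for 1-S UV-A over 1-S dark (unadjusted p = 0.0106, edgeR adjusted p = 1) and -0.41 ± 0.18 for 1-S UV-A over vehicle UV-A (edgeR adjusted p = 0.0877). None of the IGF1R differences passed the test.

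With 1-S the substrates changed in opposite directions, IRS1 lower and IRS2 higher. IRS1 (chromosome 2, 226731317 to 226799759, minus strand) had 20.6 FPKM in 1-SO UV-A cells against 29.9 FPKM in vehicle UV-A cells, and 27.5 FPKM in 1-SO dark cells against 28.6 FPKM in vehicle dark cells. The round 2 values were 12.8 FPKM in 1-S UV-A cells against 22.7 FPKM in vehicle UV-A cells, and 13.6 FPKM in 1-S dark cells against 22.0 FPKM in vehicle dark cells. The libraries lowest in IRS1 within each round were those lowest in IGFBP4. On the log2 scale IRS1 fell by 0.63 ± 0.18 with 1-SO under UV-A (edgeR adjusted p = 0.0225), by 0.87 ± 0.18 with 1-S under UV-A (edgeR adjusted p = 0.000697) and by 0.75 ± 0.18 with 1-S in the dark (edgeR adjusted p = 0.00269).

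IRS2 (chromosome 13, 109752698 to 109786568, minus strand) had 14.5 FPKM in 1-SO UV-A cells against 10.6 FPKM in vehicle UV-A cells, and 8.54 FPKM in 1-SO dark cells against 9.002 FPKM in vehicle dark cells. In round 2 it had 22.0 FPKM in 1-S UV-A cells against 10.5 FPKM in vehicle UV-A cells, and 24.3 FPKM in 1-S dark cells against 9.40 FPKM in vehicle dark cells. Within each round the libraries lowest in IRS1 were the highest in IRS2. IRS2 rose by 1.00 ± 0.17 on the log2 scale with 1-S under UV-A (edgeR adjusted p = 8.94e-05) and by 1.33 ± 0.17 with 1-S in the dark (edgeR adjusted p = 1.73e-06). With 1-SO it rose by 0.64 ± 0.19 in UV-A over dark cells (edgeR adjusted p = 0.0232), while 1-SO UV-A over vehicle UV-A gave 0.37 ± 0.18 (edgeR adjusted p = 0.19).

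The ratio of IRS2 to IRS1 levels was 0.705 with 1-SO and UV-A against 0.356 with vehicle and UV-A, and 0.311 with 1-SO in the dark against 0.314 with vehicle in the dark. With 1-S it was 1.72 under UV-A against 0.463 in vehicle cells, and 1.79 in the dark against 0.428 in vehicle cells. The ratio depends on the annotated lengths of both genes, which differed between rounds, so its size is not compared between rounds. Within round 1 the library with 1-SO and UV-A had the highest ratio, and within round 2 both 1-S libraries had the highest ratios. The summed level of both genes was 35.1 FPKM in 1-SO UV-A cells against 40.5 FPKM in vehicle UV-A cells, and 36.0 FPKM in 1-SO dark cells against 37.6 FPKM in vehicle dark cells. With 1-S it was 34.8 FPKM against 33.2 FPKM in vehicle cells under UV-A, and 38.0 FPKM against 31.4 FPKM in the dark.

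The compounds, which differ by the oxygen on the ring sulfur, form 1 pair that was compared at the same dose and time under UV-A and in the dark, as the 1-SO effect minus the 1-S effect, each over vehicle in the same model. Round and passage differ with the compound in this comparison. Under UV-A, 1 of 7 genes passed edgeR's test, where 3.55% of all genes did (1.28% with a higher and 2.27% with a lower value for 1-SO). The effect on IGFBP7 was higher for 1-SO than for 1-S by 1.11 ± 0.31 on the log2 scale (edgeR adjusted p = 0.0438), and by 1.71 when each round's own vehicle was used. IRS2 gave -0.64 with a 95% interval from -1.11 to -0.16 (edgeR adjusted p = 0.15). The intervals ran from -0.24 to 0.72 for IRS1, from -0.56 to 0.68 for IGFBP1, from -0.29 to 0.69 for IGFBP3, from -0.98 to 0.55 for IGFBP6 and from -0.03 to 0.93 for IGF1R.

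In the dark, 4 of 7 genes passed, where 17.2% of all genes did (8.4% with a higher and 8.77% with a lower value for 1-SO). The 1-SO effect exceeded the 1-S effect by 2.25 ± 0.31 for IGFBP7 (edgeR adjusted p = 1.04e-05), by 1.02 ± 0.30 for IGFBP1 (edgeR adjusted p = 0.0191) and by 0.69 ± 0.23 for IRS1 (edgeR adjusted p = 0.0437). For IRS2 the difference was -1.43 ± 0.23 (edgeR adjusted p = 9.73e-05). The intervals of those that did not pass were -0.32 to 0.66 for IGFBP3, -0.51 to 1.01 for IGFBP6 and -0.51 to 0.44 for IGF1R. The IGFBP7 difference depended on the vehicle libraries. With either vehicle UV-A library left out, of round 1 or round 2, it was 0.54 under UV-A and 1.68 in the dark. With either vehicle dark library left out it was 1.71 under UV-A and 2.85 in the dark. From each round's own vehicle, IGFBP7 gave -0.12 for 1-SO and -1.80 for 1-S in the dark. Under UV-A these own-round values were -0.18 for 1-SO and -1.89 for 1-S. With each vehicle library left out in turn, the dark difference ran from 0.74 to 1.31 for IGFBP1 and from 0.65 to 0.72 for IRS1. IGFBP4, shown without a test, differed by 2.89 in the dark and by 0.53 under UV-A.

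Light alone gave no call in vehicle cells, with 2 libraries per group: 0 of 8 tested genes (IGFBP4 included) and 0% of all genes passed edgeR's test, with 347 genes at an unadjusted p under 0.05, and DESeq2 called 0. In round 1, vehicle UV-A over vehicle dark gave log2 ratios of -1.16 for IGFBP7, -0.65 for IGFBP4, -0.58 for IGFBP1, -0.46 for IGFBP6 and -0.32 for IGFBP3. In round 2 the same ratios were 0.01 for IGFBP7, -0.27 for IGFBP4 and -0.02 for IGFBP1 and IGFBP6, with 0.02 for IGFBP3. All 5 detected binding proteins were lower under UV-A in round 1, whereas IGFBP4 was the 1 with a ratio beyond 0.1 in size in round 2. IGFBP4 gave -0.46 ± 0.21 over both rounds (unadjusted p = 0.0329, edgeR adjusted p = 1), and IGFBP7 gave -0.56 ± 0.18 (unadjusted p = 0.00459, edgeR adjusted p = 0.945). The vehicle libraries also entered the choice of IGFBP4, so its p-value is not independent of that choice. The SE of both genes rest mostly on spread pooled over all tested genes (1 residual and 26 prior degrees of freedom). They do not measure how far the 2 pairs of IGFBP7 lay apart, at -1.16 and 0.01. Whether the light response differs between rounds was not tested, with 1 library pair in each. IRS1, IRS2 and IGF1R lay within 0.18 of 0 in both rounds.

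**Figure D4:**
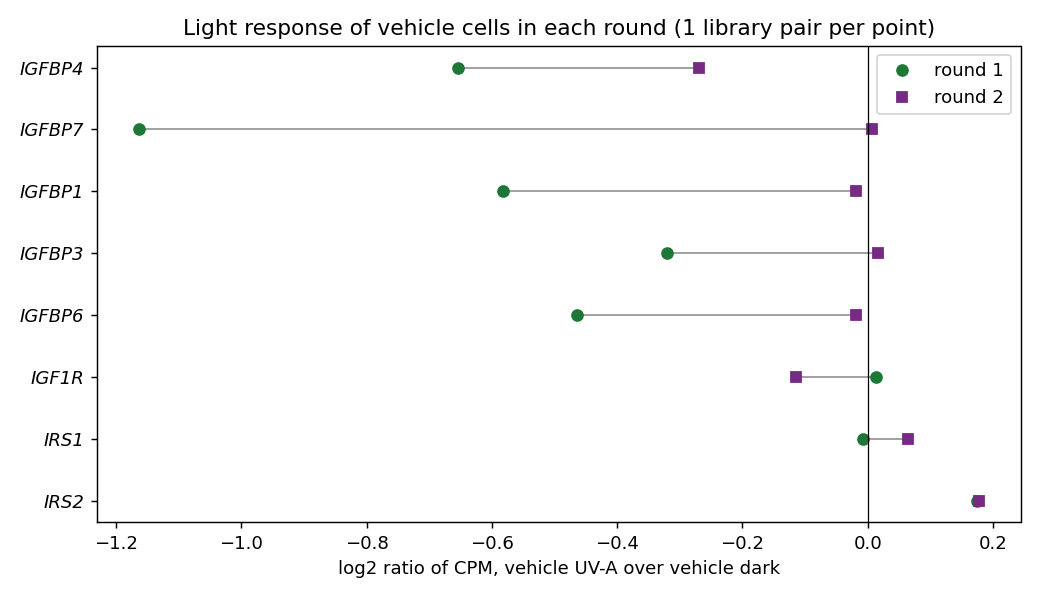
Log2 ratio of CPM, vehicle UV-A over vehicle dark (horizontal axis), for the 8 tested genes, with circles for round 1 and squares for round 2, each from 1 pair of libraries. The 5 binding proteins spread from -1.16 to -0.32 in round 1 and from -0.27 to 0.02 in round 2.

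The other genes of the pathway, 46 in all, were described from 1 list of ligands, protease and binding partners, adaptors, kinases and targets. Of these, 35 were tested and 11 stayed below the level filter, among them the ligands IGF1 (at most 0.00722 FPKM) and IGF2 (at most 1.28 FPKM) and the IGFBP4 protease PAPPA (at most 0.877 FPKM). With 1-SO under UV-A over vehicle UV-A, 3 of 35 were higher and 0 lower, where 4.47% of all tested genes were called higher and 7.05% lower. They were FOXO4 and FOXO3, transcription factors that AKT keeps out of the nucleus, and EIF4EBP1, a translation repressor controlled by mTOR. FOXO4 had 6.72 FPKM in 1-SO UV-A cells against 3.70 FPKM in vehicle UV-A cells and rose by 0.94 ± 0.29 on the log2 scale (edgeR adjusted p = 0.0328). From round 1 alone, 1-SO UV-A over vehicle UV-A gave 0.78 for FOXO4, 0.49 for FOXO3 and 0.88 for EIF4EBP1. Light in vehicle cells gave log2 ratios of 0.29 for FOXO4 and 0.21 for FOXO3 in round 1. The round 2 ratios were -0.33 for FOXO4 and -0.11 for FOXO3. For EIF4EBP1 the light ratio in vehicle cells was -0.70 in round 1 and 0.08 in round 2. In round 1 this gene had 109 FPKM in vehicle dark and 98.1 FPKM in 1-SO dark cells. It had 137 FPKM in 1-SO UV-A cells against 70.6 FPKM in vehicle UV-A cells and rose by 0.67 ± 0.21 (edgeR adjusted p = 0.0339). FOXO3 had 15.1 FPKM against 10.1 FPKM in these groups (edgeR adjusted p = 0.0408), and it was also the 1 of 35 called in 1-SO UV-A over 1-SO dark cells, where it rose by 0.73 ± 0.20 (edgeR adjusted p = 0.014) and 14.8% of all tested genes were called (5.57% higher).

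With 1-S, 4 of 35 were higher and 5 lower than vehicle under UV-A, where 13.8% of all tested genes were called higher and 13.7% lower. In the dark 6 were higher and 5 lower, beside 15.9% higher and 15% lower among all tested genes. Under UV-A the receptor that clears IGF2, IGF2R, fell to 10.7 FPKM in 1-S UV-A cells, against 24.1 FPKM in vehicle UV-A cells (-1.25 ± 0.20, edgeR adjusted p = 4.17e-05). GRB10, an adaptor that restrains insulin and IGF receptors, rose to 21.4 FPKM in 1-S UV-A cells, against 9.97 FPKM in vehicle UV-A cells (1.06 ± 0.17, edgeR adjusted p = 4.51e-05). The IGF2 mRNA-binding protein IGF2BP3 fell to 3.14 FPKM in 1-S UV-A cells, against 5.91 FPKM in vehicle UV-A cells (-1.05 ± 0.21, edgeR adjusted p = 0.0005). STC1, which encodes an inhibitor of PAPPA, fell in both light conditions, to 9.54 FPKM in 1-S UV-A cells against 17.1 FPKM in vehicle UV-A cells, and to 10.4 FPKM in 1-S dark cells against 20.3 FPKM in vehicle dark cells.

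With 1-S in the dark, FOXO3 rose by 0.88 ± 0.18 on the log2 scale, GRB10 by 0.85 ± 0.17 and PIK3R1, a regulatory subunit of phosphoinositide 3-kinase, by 0.84 ± 0.20, while STC1 fell by 1.03 ± 0.19 (edgeR adjusted p from 0.000227 to 0.00251). The median log2 fold change over the 35 genes was -0.01 for 1-SO UV-A, -0.07 for 1-S UV-A and -0.05 for 1-S dark over vehicle. For 1-SO in the dark, for light in 1-S cells and for light in vehicle cells, edgeR called 0 of 35. At an unadjusted p under 0.05 these comparisons held 0, 1 and 0 of the 35, the 1 being IGF2R, and DESeq2 called 0 genes in each. IGF2R was the 1 of 35 whose 1-SO effect differed from the 1-S effect under UV-A, by 1.56 ± 0.26 (edgeR adjusted p = 0.000417), where 3.55% of all tested genes differed. In the dark 4 of 35 differed, where 17.2% of all tested genes did, STC1 with a higher value for 1-SO and FOXO3, PIK3R1 and GRB10 with a lower one.

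**Figure D5:**
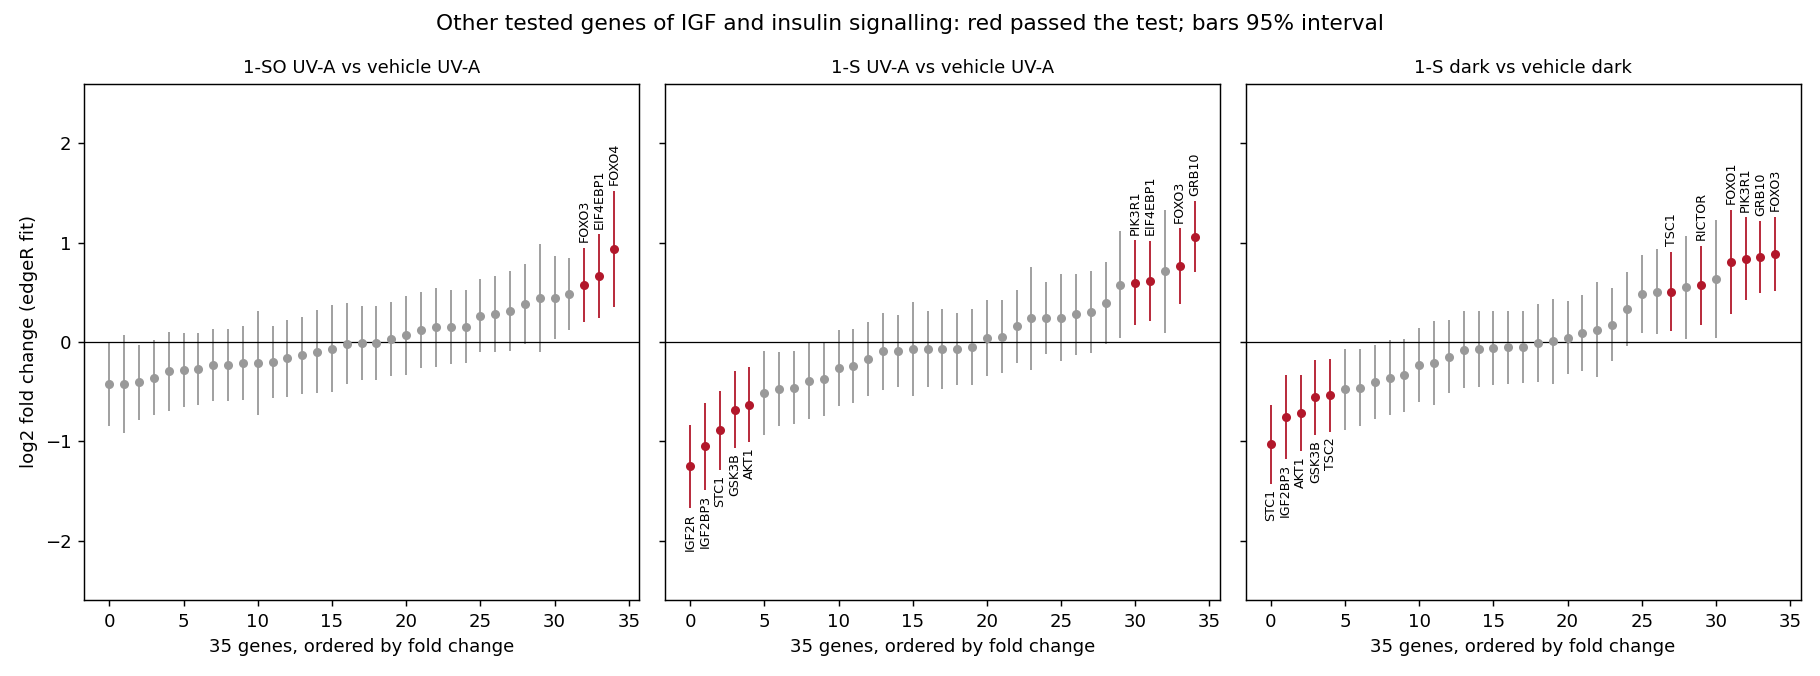
Fitted log2 fold change (vertical axis) of the 35 tested genes of the pathway list, ordered from low to high in each of 3 comparisons, with 95% intervals and names where the adjusted p was under 0.05 (red). The 3 named genes of 1-SO UV-A are all higher, and 1-S has named genes at both ends.

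The 5 genes whose levels followed IGFBP4 most closely over the 8 libraries, by Pearson's r of log2 CPM after taking out each round's mean, were GALNT10 (r = 0.999), SLCO4A1 (r = 0.998), PYGB (r = 0.997), FAM129B (r = 0.997) and SH3TC2 (r = 0.997). The 8 points share libraries and rounds, and r is given as a description. SLCO4A1, an organic anion transporter, had 4.92 FPKM in 1-SO UV-A cells against 29.5 FPKM in vehicle UV-A cells, and 4.88 FPKM in 1-S dark cells against 59.3 FPKM in vehicle dark cells. GALNT10, an enzyme of O-glycosylation, had 27.1 FPKM in 1-SO UV-A cells against 60.3 FPKM in vehicle UV-A cells, and 13.7 FPKM in 1-S dark cells against 43.1 FPKM in vehicle dark cells. Within the family r was 0.97 for IRS1, 0.94 for IGFBP7, 0.92 for IGFBP1, 0.87 for IGFBP6, 0.61 for IGFBP3, 0.37 for IGF1R and -0.96 for IRS2. IRS1 ranked 422nd and IGFBP7 1239th of 12695 genes by this measure.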

How the data were processed

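Per the labels, poly-A RNA was sequenced in 2 rounds, and the builds hg19 and hg38 and the tools HTSeq 0.6.1, STAR 2.5, TopHat, DESeq2 and edgeR 3.16.5 are credited to the submitters' processing notes. Their assignment to rounds is not stated there. The authors deposited whole read counts per gene, FPKM values computed from them, and tables with log2 fold changes and adjusted p-values of their own comparisons. Counts of round 1 were collected from the deposited comparison tables and checked by recomputing the deposited FPKM.

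Genes were joined by ID and kept at 1 FPKM in 2 libraries. edgeR 4.0.16 (R 4.3.3) was run on the counts with TMM factors within each round. The model had a term for round, a light term for vehicle shared between rounds, and 1 term per compound group, with 1 residual degree of freedom and 26 prior ones. The spread therefore comes from the vehicle libraries, as the difference of their light response between the rounds. A change of that response with round or passage would count as spread. The labels' titles give the rounds, and round was taken as the pairing. The same-round vehicle libraries deviated together (r = 0.86 over 12696 genes). The rounds also differ in passage and annotation, so this r cannot show that dark and UV-A wells were paired. Nothing says that the vehicle libraries came from separate cultures beyond their rounds, and the spread between them may be technical. With 1 residual and 26 prior degrees of freedom, a gene's SE and p-value rest mostly on that spread pooled over all tested genes. They measure little of the gene's own spread. Alternatives were DESeq2 1.42.0, RLE scaling, no filter, no round term, FPKM pseudocounts and leaving out each vehicle library.

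Members and lists were chosen with earlier results of these data known. All 10 members are named. Of the pathway list, at most 4 called genes with the largest changes are described per comparison, and the 5 genes most like IGFBP4 are named.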

Additional observations from a re-analysis of the deposited data

Results flagged for a closer look

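In the dark the 1-SO effect and the 1-S effect over vehicle differed by edgeR's test of the difference itself for IGFBP7 (2.25), IGFBP1 (1.02), IRS1 (0.69) and IRS2 (-1.43), all on the log2 scale. Under UV-A the effects differed for IGFBP7 (1.11). From each round's own vehicle, IGFBP7 gave -0.12 for 1-SO and -1.80 for 1-S in the dark. Under UV-A these own-round values were -0.18 for 1-SO and -1.89 for 1-S. Each value rests on 1 library per compound, and compound, round and passage cannot be told apart in it. IGFBP7 was also the gene whose light difference in vehicle cells varied most among the tested members between rounds, at -1.16 in round 1 and 0.01 in round 2.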

How the results depend on the processing

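edgeR made 16 calls of members over the 9 comparisons, against 14 with RLE scaling, 17 with no filter, 6 with DESeq2 and 0 without the round term (no replicate block). Without the block 0, 15, 19, 0, 0 and 0 genes were called for 1-SO UV-A, 1-S UV-A, 1-S dark, 1-SO UV-A over 1-SO dark, and the compound difference under UV-A and in the dark, where the paired model called 1462, 3487, 3926, 1876, 451 and 2181. DESeq2 called 489 (133 higher and 356 lower, against 567 and 895 by edgeR), 1476, 1587, 594, 134 and 651 for these. With no filter 3 genes were called for 1-S UV-A over 1-S dark and 23 for vehicle light.

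Without the block the sign turned for 1-SO UV-A in IGF1R (-0.061), for 1-SO dark in IGFBP1 (-0.35), IGFBP6 (0.095), IGFBP7 (-0.79) and IGF1R (-0.079), for the compound difference under UV-A in IGFBP1 (-1.04), IGFBP6 (0.37), IGFBP7 (-0.58) and IRS1 (-0.11), and in the dark in IGFBP1 (-0.080). With no filter it turned for IGF1R in 1-S dark (-0.025) and in the dark difference (0.046). The causes were not tested.

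RLE scaling lost IGFBP7 in the UV-A difference (adjusted p = 0.088) and IRS1 in the dark difference (adjusted p = 0.0502), and no filter added IGFBP1 for 1-S UV-A. DESeq2 lost 10 of the 16 calls, among them IRS1 for 1-SO UV-A (adjusted p = 0.107) and IGFBP7 for 1-S UV-A (adjusted p = 0.119). Leaving out a vehicle library leaves no residual degrees of freedom, so these are values with no test. They moved by over 1.5 times only for IGFBP7 among the 8 tested members: -1.89 to -0.72 for 1-S UV-A (lower size without vehicle UV-A of round 2), -2.98 (without vehicle dark of round 2) to -1.80 for 1-S dark, 0.54 to 1.71 for the UV-A difference, 1.68 to 2.85 for the dark difference, -1.35 to -0.18 for 1-SO UV-A, -0.12 to 1.05 for 1-SO dark and -1.17 to 0.01 for vehicle light.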
